A study of Mus musculus with 6 samples.

Results

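The mitosis and G2/M genes are 52 genes whose products bring a cell into mitosis, build the spindle, hold or release the sister chromatids and divide the cell. They were taken by symbol from a list of such genes, drawn up with earlier results of these data known and with no threshold on a measured value, and all 52 were found among the 26656 genes listed. RNA was sequenced from N2a cells, a mouse neuroblastoma line of wild type genotype, which had been transfected with a plasmid for a short hairpin RNA against *Npm1* (pLKO.1-shNpm1, NPM1 KD) or with a non-targeting one (pLKO.1-shCTR, CTR). Both groups were put under puromycin (9.3 µg/ml) 24 h after transfection and RNA was taken after 72 h, so that both held plasmid-bearing, drug-selected cells. There were 3 libraries per group, read as long PCR-amplified cDNA on a nanopore instrument. Each group rests on 1 hairpin in 1 cell line. The sample descriptions name 3 biological replicates in one place and 2 in another. Where libraries share a culture, the p-values measure only the spread between libraries, pooled over genes.

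Most genes of this kind are kept low in G1 and are transcribed mainly in G2. CDK1 bound to cyclin B starts mitosis, the kinases PLK1 and Aurora A and B arrange spindle and chromosomes, and the checkpoint proteins hold back the anaphase promoting complex until every kinetochore is attached. The DREAM complex and MuvB with FOXM1 act at many of their promoters through a short element called CHR, often next to CCAAT boxes bound by NF-Y. In RNA from whole cultures, fewer cells in G2 or mitosis and less RNA per such cell cannot be told apart.

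Promoters of the members shared these elements, which the list did not use. Among the 43 members with a promoter entry in the RefSeq table (build GRCm38.p6, from 250 bases before to 50 after the gene start), 32 (74.4%) held the CHR letters TTTGAA on either strand, against 5466 of 27025 genes (20.2%). The CCAAT letters stood in 34 members (79.1%) and in 41.1% of all genes. The E2F-like letters GCGGGAA stood in 1 member (2.33%) and in 5.29% of all genes. A gene with several distinct windows was counted when any of them held the letters, here and in the division by CHR letters below. For each printed gene only the first window is shown. The 5 promoters printed here are those of 4 members whose CTR and NPM1 KD values did not overlap and that have an entry, and of *Ccnb2*, a classical CHR gene with 1 value in all libraries. Each is written 5′ to 3′ on the strand of the gene, and capitals mark matches to any of these motifs on either strand.

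Top2a (chr11:99024140-99024439, minus strand): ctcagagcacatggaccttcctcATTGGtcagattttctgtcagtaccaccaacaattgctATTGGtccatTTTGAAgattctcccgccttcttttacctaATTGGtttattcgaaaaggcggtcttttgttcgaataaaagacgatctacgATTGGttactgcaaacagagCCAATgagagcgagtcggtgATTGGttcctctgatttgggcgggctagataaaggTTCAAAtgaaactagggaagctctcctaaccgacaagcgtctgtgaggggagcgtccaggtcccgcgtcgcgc
Mki67 (chr7:135716330-135716629, minus strand): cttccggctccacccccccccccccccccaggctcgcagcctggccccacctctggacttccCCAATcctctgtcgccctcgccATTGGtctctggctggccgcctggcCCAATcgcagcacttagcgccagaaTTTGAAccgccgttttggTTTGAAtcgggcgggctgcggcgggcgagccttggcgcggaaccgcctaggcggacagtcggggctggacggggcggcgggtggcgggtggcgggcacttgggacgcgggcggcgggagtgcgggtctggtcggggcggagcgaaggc
Nusap1 (chr2:119618048-119618347, plus strand): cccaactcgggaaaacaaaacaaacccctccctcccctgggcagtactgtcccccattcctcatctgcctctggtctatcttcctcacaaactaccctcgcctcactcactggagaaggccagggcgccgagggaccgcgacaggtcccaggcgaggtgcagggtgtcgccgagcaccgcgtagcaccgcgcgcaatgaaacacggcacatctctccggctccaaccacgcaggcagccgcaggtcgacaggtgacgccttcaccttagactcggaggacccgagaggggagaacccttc
Pttg1 (chr11:43425932-43426231, minus strand): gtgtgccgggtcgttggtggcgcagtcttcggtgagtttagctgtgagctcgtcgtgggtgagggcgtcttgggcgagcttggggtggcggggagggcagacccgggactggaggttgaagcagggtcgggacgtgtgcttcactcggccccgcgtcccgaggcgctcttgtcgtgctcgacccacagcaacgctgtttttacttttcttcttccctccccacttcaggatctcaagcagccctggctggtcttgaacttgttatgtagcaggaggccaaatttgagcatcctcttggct
Ccnb2 (chr9:70421505-70421804, minus strand): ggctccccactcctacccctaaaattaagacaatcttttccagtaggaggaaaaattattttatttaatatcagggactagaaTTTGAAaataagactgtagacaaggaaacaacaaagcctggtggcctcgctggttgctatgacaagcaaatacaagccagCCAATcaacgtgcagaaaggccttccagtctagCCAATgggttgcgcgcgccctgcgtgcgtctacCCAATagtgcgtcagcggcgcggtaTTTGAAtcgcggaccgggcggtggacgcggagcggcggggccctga

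The windows of *Top2a* and *Mki67* each held 2 CHR matches, with 6 and 3 CCAAT matches. The *Ccnb2* window held 2 and 3. Those of *Nusap1* and *Pttg1* held 0 of these letters within the 300 bases, which says only that the letters are not in this window. The members that could be tested divided as follows: of 26 with CHR letters, 16 had a lower mean in NPM1 KD, 10 had equal means and 0 a higher one, with a median difference of −0.33 on the log2 scale. Of 10 without them, 4 were lower, 4 equal and 2 higher, with a median of 0. The difference between these 2 sets was not tested.

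The values are the authors' regularized log (rlog) values, which are on the log2 scale, normalized for library size and shrunk for genes with few reads. Every value of 1 or more in size was deposited as a whole number, so differences below 1 are often hidden, and levels are not compared between genes, since the scale is not per length. Total reads per library are not known. The authors' mean normalized counts sum to 841220, and relative depths ranged from 1.11 to 1.30 among CTR libraries and from 0.784 to 0.961 among NPM1 KD libraries, which were all shallower. Testing was restricted to genes averaging log2 of 10 or more across libraries, which left 5752 genes and 42 of the members. The other 10 (*Cdc25c*, *Foxm1*, *Ndc80*, *Kif2c*, *Kif4*, *Bub1*, *Ttk*, *Ncapg*, *Cdc20* and *Kif20a*) are described by reads further on. *Npm1* (ENSMUSG00000057113), the target of the hairpin, had a value of 10 in each CTR library and of 8 in each NPM1 KD library, a difference of −2 (SE 0.33, limma with Benjamini-Hochberg adjustment, adjusted p = 3.23e-06).

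**Figure D1:**
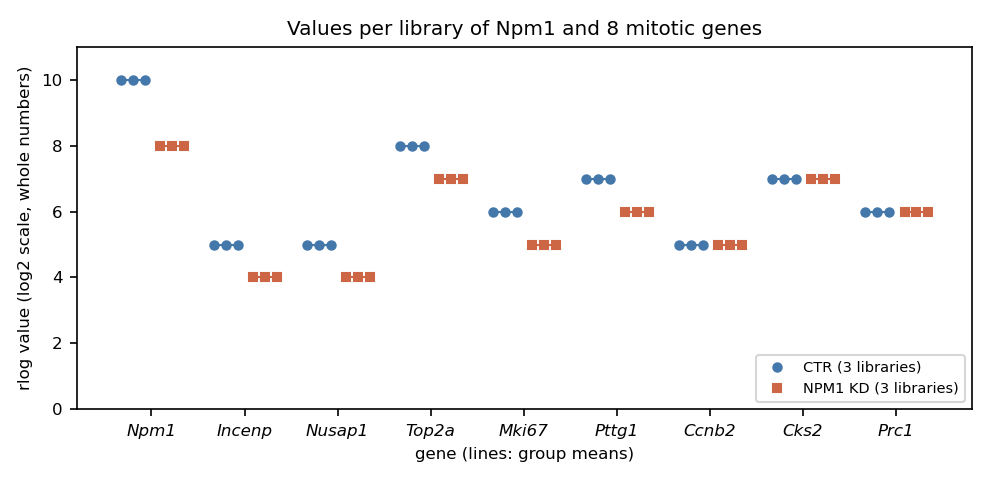
rlog values (log2 scale) of *Npm1* and 8 members in each of the 3 CTR (circles) and 3 NPM1 KD (squares) libraries, with lines at the group means. *Incenp*, *Nusap1*, *Top2a*, *Mki67* and *Pttg1* stand 1 unit lower in every NPM1 KD library, while *Ccnb2*, *Cks2* and *Prc1* have 1 value in all 6.

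Across the 42 tested members the mean was lower in NPM1 KD for 24 (57.1%), equal for 16 (38.1%) and higher for 2 (4.76%). Over all tested genes these shares were 27.4%, 48.0% and 24.6%. *Cdc25b*, among the 24, reached the filter only through its CTR values. The median difference of the members was −0.33 and their mean difference −0.28, against 0 and −0.02 for all tested genes. In 5 members all NPM1 KD values lay below all CTR values, where 3.41% of all tested genes did so, and in 0 members all lay above, where 2.19% did. No member passed the threshold of 0.05 in limma after Benjamini-Hochberg adjustment over all 5752 genes, where 0.417% of genes were called lower and 0.0695% higher. The 5 separated members each had a step of 1 in whole numbers, and all had the same adjusted p of 0.0791 in this fit. Rounding and the limit on the variance set that value, so a step of this size could not pass in them, whatever their own spread. Before adjustment, 6 members reached p below 0.05 with a lower mean and 0 with a higher one, beside 8.07% and 6.07% of all tested genes. In 15 members the same whole number stood in all 6 libraries. The median came to 0 without CTR replicate 3 or without NPM1 KD replicate 1, and was −0.25 without CTR replicate 1, CTR replicate 2 or NPM1 KD replicate 2.

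By library, the mean rlog value of the 42 members minus that of all tested genes was 0.0453, 0.0732 and 0.0903 in CTR against −0.255, −0.171 and −0.126 in NPM1 KD. The CTR libraries thus lay above the NPM1 KD libraries with no overlap. The deeper libraries were also the CTR ones, and the part of depth in this was not tested.

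**Figure D2:**
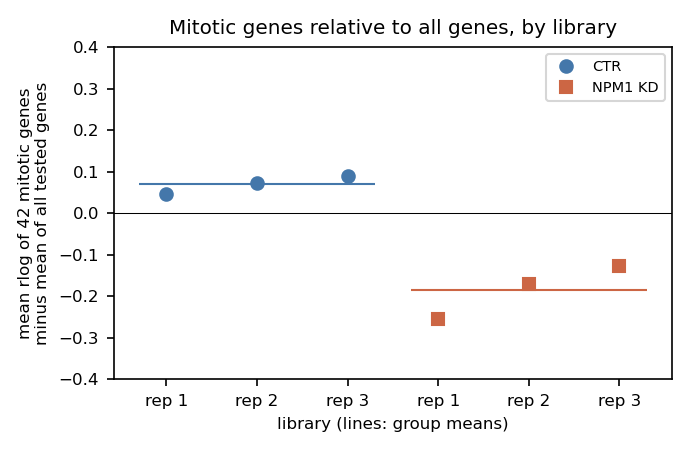
Mean rlog value of the 42 tested members minus the mean of all 5752 tested genes (log2 scale) in each library, with lines at the group means. The 3 CTR libraries lie at 0.0453 to 0.0903 and the 3 NPM1 KD libraries at −0.255 to −0.126.

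Among the kinases and cyclins of mitotic entry, 9 of 11 were tested, of which 4 had a lower mean, 4 equal means and 1 a higher mean, and 0 passed the threshold. *Cdk1*, the kinase that drives entry, had values of 7, 8 and 7 in CTR against 7, 7 and 7 in NPM1 KD. Its partner *Ccnb1* (cyclin B1) stood at 6, 7 and 7 against 7, 7 and 7, 1 of the 2 members with a higher mean. *Ccnb2* (cyclin B2) stood at 5 in all 6 libraries and *Ccna2* (cyclin A2), which acts from S phase into early mitosis, at 4, 4 and 5 against 4, 4 and 4. In these 4 genes the groups thus overlapped or were equal, and a single CTR library set each difference. The 95% interval for *Ccnb2* ran from −0.65 to 0.65, so that a change of that size in either direction was not detectable.

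*Plk1*, the kinase of centrosome maturation and cytokinesis, was at 7 in each CTR library and at 7, 6 and 6 in NPM1 KD. Its difference was −0.67 (95% interval −1.35 to 0.01, limma with Benjamini-Hochberg adjustment, adjusted p = 0.33), and NPM1 KD replicate 1 overlapped with CTR. *Cdc25b*, a phosphatase that activates CDK1, was named after its values were seen. It had 4, 3 and 4 in CTR against 3, 3 and 3 in NPM1 KD (−0.67, limma with Benjamini-Hochberg adjustment, adjusted p = 0.47). *Cdc25b* reached the filter only through its CTR values, so its lower mean is tied to the filter. *Aurka* (Aurora A, the spindle pole kinase) was at 4 throughout. *Cks1b* and *Cks2*, the small subunits of cyclin-dependent kinases, were at 7 throughout.

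In the kinetochore group, which links chromosomes to microtubules, 6 of 7 genes were tested, with 2 lower and 4 equal means and 0 calls. *Cenpa*, the centromeric histone H3 variant, stood at 6 in each CTR library and at 5, 6 and 6 in NPM1 KD. *Cenpe*, a kinetochore motor, was at 4 and *Cenpf* at 6 in every library. The remaining kinetochore genes of the test, in the NDC80 complex, lay between 4 and 5 in all libraries. As a group the kinetochore genes had a mean difference of −0.11 and a median of 0.

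The chromosomal passenger complex corrects faulty attachments and later steers cytokinesis. Its scaffold *Incenp* had 5 in each CTR library and 4 in each NPM1 KD library. The groups did not overlap, and the difference was −1 (SE 0.33, 95% interval −1.65 to −0.35, limma with Benjamini-Hochberg adjustment, adjusted p = 0.0791). The kinase *Aurkb* was at 4 in all libraries. *Birc5* (survivin) had 7, 7 and 8 in CTR against 7, 7 and 7 in NPM1 KD. The fourth subunit, *Cdca8* (borealin), had 5, 5 and 6 against 5, 5 and 5. Of the 4 subunits, then, 3 had a lower mean and 1 an equal one, and the full step of 1 in every library was seen in the scaffold.

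Of the spindle motors and microtubule-binding proteins, 7 of 9 were tested, with 5 lower and 2 equal means. *Nusap1*, which bundles and stabilises spindle microtubules, had 5 in every CTR and 4 in every NPM1 KD library, with no overlap (−1, SE 0.33, 95% interval −1.65 to −0.35, limma with Benjamini-Hochberg adjustment, adjusted p = 0.0791). *Ckap2*, a spindle-associated protein named after its values were seen, had 5, 5 and 4 against 4, 4 and 4. Its difference of −0.67 had an unadjusted limma p of 0.046 and an adjusted p of 0.33. *Kif11*, the motor that pushes spindle poles apart, was at 4 throughout. *Tpx2*, the activator of Aurora A, had 5, 5 and 5 in CTR against 4, 5 and 5 in NPM1 KD. The remaining 3 tested genes of the group, *Hmmr*, *Ckap5* and *Kif22*, stood between 4 and 5 in all libraries, with differences of −0.33, −0.33 and 0.

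The spindle checkpoint had 3 of 5 genes tested, in different directions. *Bub1b* (BUBR1) stood at 4 in each CTR library and at 3, 4 and 4 in NPM1 KD, *Bub3* at 7 in all libraries and *Mad2l1* (MAD2) at 4, 5 and 4 against 5, 4 and 5. The libraries overlapped in all 3 genes, and the interval of *Mad2l1* ran from −0.31 to 0.98.

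Condensin subunits and other chromosome proteins showed the largest mean difference among the 7 groups (−0.53), with 4 lower and 1 equal mean among 5 tested of 6. *Top2a*, the topoisomerase that untangles sister chromatids, had 8 in each CTR and 7 in each NPM1 KD library. Its difference was −1 (SE 0.35, 95% interval −1.68 to −0.32, limma with Benjamini-Hochberg adjustment, adjusted p = 0.0791). *Mki67* (Ki-67), which coats mitotic chromosomes and marks cycling cells, had 6 in each CTR and 5 in each NPM1 KD library (−1, SE 0.34, 95% interval −1.66 to −0.34, adjusted p = 0.0791 by the same limma fit and Benjamini-Hochberg adjustment). In both genes the groups did not overlap. Among the condensin subunits *Smc2* was at 5 throughout and *Smc4* had 7, 6 and 6 in CTR against 6, 6 and 6 in NPM1 KD. *Ncapd2* had 4, 4 and 4 against 4, 3 and 4, so that the 2 groups overlapped or were equal in each condensin subunit tested.

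Of the genes of anaphase, mitotic exit and cytokinesis, 8 of 10 were tested, with 5 lower and 3 equal means. *Pttg1* (securin, the inhibitor of separase) had 7 in each CTR and 6 in each NPM1 KD library, again with no overlap (−1, SE 0.35, 95% interval −1.68 to −0.32, limma with Benjamini-Hochberg adjustment, adjusted p = 0.0791). The ubiquitin-conjugating enzymes of the anaphase promoting complex overlapped: *Ube2c* had 7, 7 and 7 against 6, 7 and 7, and *Ube2s* had 7, 6 and 7 against 7, 7 and 6. *Prc1*, which bundles the midzone, was at 6 and *Anln* (anillin), a scaffold of the contractile ring, at 4 in all 6 libraries. *Kif23*, *Racgap1* and *Ect2*, which signal from the midzone to the contractile ring, each had a difference of −0.33.

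**Figure D3:**
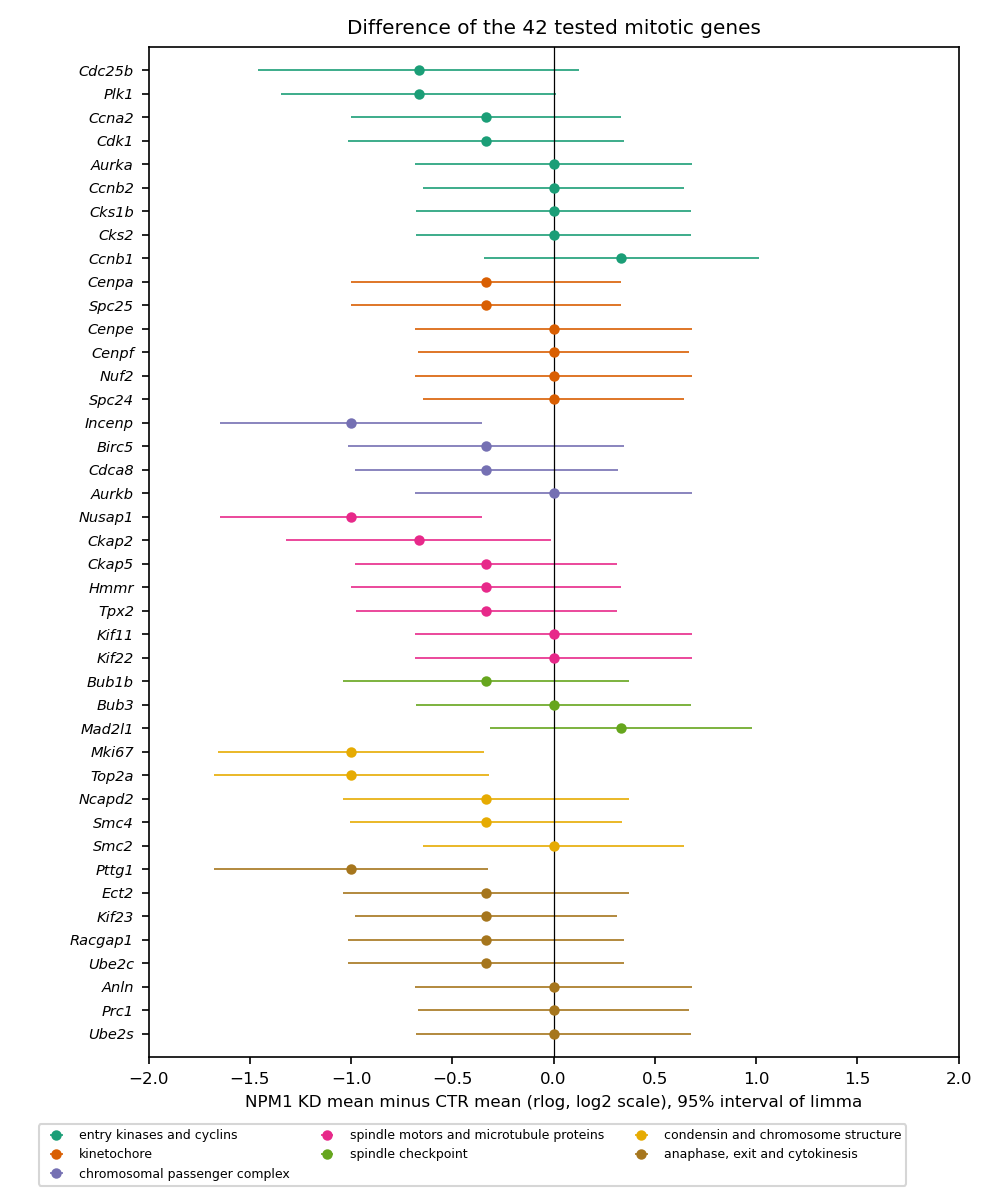
NPM1 KD mean minus CTR mean of rlog values (log2 scale) for each of the 42 tested members, coloured by functional group, with 95% intervals from limma (3 libraries per group). The intervals of *Incenp*, *Nusap1*, *Top2a*, *Mki67*, *Pttg1* and *Ckap2* lie below 0, none lies above 0, and no gene passed the adjusted threshold.

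The low members could be read more finely than the rlog values allow. A gene's mean normalized count is a sum of whole reads divided by the relative depths, and with 10 significant digits deposited it usually has 1 solution in whole reads. Of 3497 genes with a mean of 3 to under 10, 3464 (99.06%) had exactly 1. Of 1236 resolved genes whose rlog values differed between libraries, 1234 (99.84%) had reads in the same order as their rlog values. These reads are worked out from the deposited means and are not the counts themselves.

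*Bub1*, the checkpoint kinase at unattached kinetochores, had 14, 22 and 16 reads in the CTR libraries and 1, 3 and 7 in the NPM1 KD libraries. Divided by relative depth, the means were 14.2 ± 2.81 and 4.06 ± 3.03 (SD, n = 3 each), 0.286 times the CTR level. The groups did not overlap, although the rlog value of *Bub1* was 3 in all 6 libraries. limma with voom gave a log2 fold change of −1.69 (SE 0.61, 95% interval −2.91 to −0.46, unadjusted p = 0.00809, adjusted p = 0.46 over the 3464 genes). Without NPM1 KD replicate 3 the log2 fold change of *Bub1* was −2.31.

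*Foxm1*, the transcription factor of many G2 genes, had 14, 12 and 7 reads in CTR and 0, 1 and 8 in NPM1 KD. Its normalized means were 8.92 ± 2.51 and 3.18 ± 4.50 (SD, n = 3 each), and the groups overlapped, since NPM1 KD replicate 3, with 8 reads, lay above CTR replicate 3, with 7. Its log2 fold change of −1.90 had a 95% interval from −4.13 to 0.34 (voom, adjusted p = 0.53). It was −1.01 without NPM1 KD replicate 1 and −3.12 without NPM1 KD replicate 3. The value thus rested on NPM1 KD replicates 1 and 2, which were also the shallowest libraries.

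*Cdc25c*, a phosphatase that activates CDK1 at entry, had 11, 9 and 7 reads in CTR and 4, 3 and 5 in NPM1 KD. After division by depth the groups did not overlap, at 7.35 ± 1.34 and 4.64 ± 0.898 (SD, n = 3 each), with a voom log2 fold change of −0.58 (95% interval −1.59 to 0.43). *Cdc25b*, its relative, had 18, 12 and 27 reads in CTR and 6, 0 and 10 in NPM1 KD, 0.377 times the CTR level after normalization, with an overlap between CTR replicate 2 and NPM1 KD replicate 3. *Ect2*, the exchange factor that activates RhoA for cytokinesis, had 3 whole-read solutions, of which 1 followed the order of its rlog values: 20, 16 and 18 reads in CTR and 6, 9 and 10 in NPM1 KD. On that solution its groups did not overlap and NPM1 KD was at 0.648 times CTR. *Kif2c*, a microtubule depolymerase that also took this second criterion, had 10, 18 and 18 against 2, 8 and 10, with overlap.

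Among the low members, *Ttk* and *Kif4* had a higher normalized mean in NPM1 KD. *Ttk* (MPS1), the upstream checkpoint kinase, had 4, 6 and 4 reads in CTR and 6, 2 and 2 in NPM1 KD. Its normalized means were 3.81 ± 0.718 and 4.05 ± 3.13 (SD, n = 3 each), higher in NPM1 KD, while its fitted log2 fold change was −0.19, so that mean and fit differed in sign. *Ndc80*, a kinetochore subunit that binds microtubules, had 9, 20 and 12 reads against 7, 3 and 13 (0.781 times CTR). *Ncapg*, a condensin subunit, had 9, 3 and 9 against 1, 4 and 3 (0.522 times CTR). In *Ttk*, *Ndc80* and *Ncapg* the libraries overlapped.

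*Cdc20*, the activator of the anaphase promoting complex, was close to the limit of detection, with 2, 4 and 1 reads in CTR and 1, 2 and 1 in NPM1 KD. *Kif20a* had 2, 1 and 6 against 2, 2 and 1, and *Kif4* had 0, 4 and 3 against 3, 1 and 3. None of these genes was in either fit, so their differences were not tested.

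**Figure D4:**
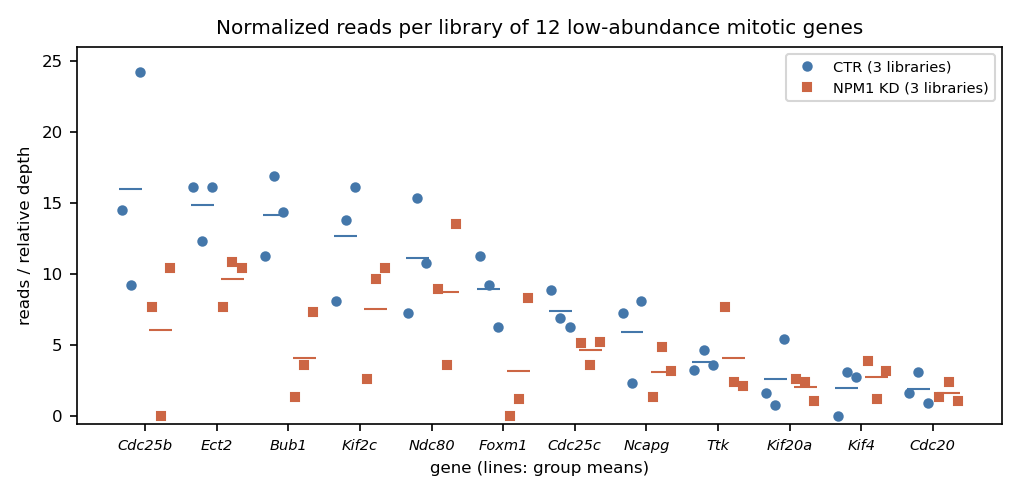
Whole reads divided by the relative depth of the library for 12 members with few reads, in the 3 CTR (circles) and 3 NPM1 KD (squares) libraries, with lines at the group means. *Bub1*, *Cdc25c* and *Ect2* do not overlap between groups, with all NPM1 KD libraries lower, and *Ttk* and *Kif4* have the higher mean in NPM1 KD.

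Among the 6 members of the voom fit, 6 had a log2 fold change below 0, beside 54.3% of the 3464 genes, with medians of −0.62 and −0.08. In 2 of them the groups did not overlap and NPM1 KD was lower, beside 12.2% of all genes, and in 0 NPM1 KD was higher without overlap, beside 7.25%. An unadjusted p below 0.05 was reached by 1 member (*Bub1*), beside 5.17% of all genes, and the adjusted threshold by 0 of the 3464 genes in either direction. On the scale of log2 of normalized reads plus 1, limma called 34 of these genes lower and 1 higher, with 0 members among them.

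Other mitotic genes outside the 52 were counted in the same way. Of 108 found, 62 were tested, and 23 had a lower, 29 an equal and 10 a higher mean, with 0 calls. *Pimreg*, among the 23, reached the filter only through its CTR values. Before adjustment, limma p was below 0.05 with a lower mean in 10 of the 62 and with a higher mean in 1. Over all tested genes the shares were 8.07% and 6.07%. In 3 of the 62 the groups were separated and NPM1 KD was lower, and in 0 it was higher. Beside 3.41% and 2.19% of all tested genes, the counts of separated genes were near the background. The 3 were *Hjurp*, *Tubb5* and *Kif14*. *Hjurp*, the chaperone of CENP-A, had 6 in each CTR and 5 in each NPM1 KD library. *Tubb5*, a β-tubulin, had 10 and 9, and *Kif14*, a cytokinesis motor, had 4 and 3. *Kif14* reached the filter only through its CTR values, so its place among the 3 is tied to the filter. Subunits and cofactors of the anaphase promoting complex with separase had 2 lower, 8 equal and 3 higher means among 13, with a median of 0. On whole reads, 28 of 34 further mitotic genes had a log2 fold change below 0 with a median of −0.61, beside 54.3% and −0.08 over the 3464 genes. The groups were separated with NPM1 KD lower in 8 of the 34, beside 12.2% of all genes in the fit. Among the 8 was *Espl1* (separase), the protease that securin inhibits, with 18, 18 and 13 reads in CTR and 2, 4 and 10 in NPM1 KD.

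DNA replication and S phase genes had 11 lower, 12 equal and 4 higher means among 27 tested, none separated, and a median of 0. *Pold1*, among the 11, reached the filter only through its CTR values. The p53 targets had 2 lower, 3 equal and 2 higher means among 7. Their unadjusted limma p was below 0.05 with a higher mean in 2 and with a lower mean in 0. Over all tested genes the shares were 6.07% and 8.07%. The test of the members against either list was not run.

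**Figure D5:**
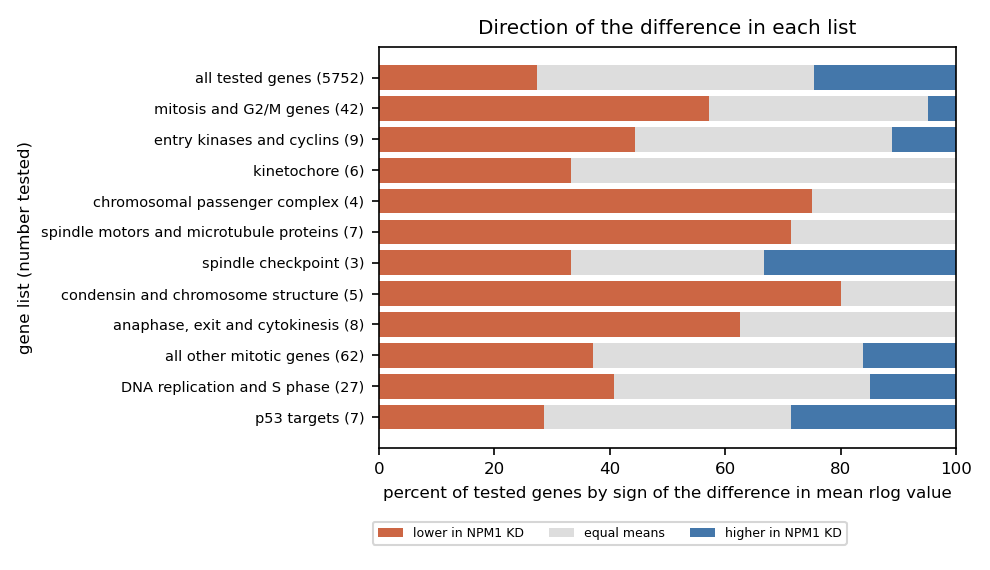
Percent of tested genes with a lower, equal or higher mean rlog value in NPM1 KD than in CTR, for all 5752 tested genes, the 42 members, their 7 functional groups and 3 further lists, with the number tested in brackets. The members have 57.1% lower and 4.76% higher means, all tested genes 27.4% and 24.6%.

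The libraries were checked against markers of the cell line. Of 13 neuroblastoma and sympathetic markers 8 were tested, among them *Hand2*, a transcription factor of the sympathetic lineage. With the mitotic genes, these markers were also lower: 6 of 8 had a lower mean, 5 were separated and 2 passed the threshold, *Chgb* (8, 8 and 7 against 6, 6 and 6, limma with Benjamini-Hochberg adjustment, adjusted p = 0.0011) and *Chga* (7, 7 and 7 against 5, 6 and 6, adjusted p = 0.026). The sum of 2 to the power of their rlog values over the 12 markers above 0 was 1391 to 1521 in CTR and 815 to 895 in NPM1 KD. Of 12 fibroblast, glial and immune markers 0 reached the filter and 7 (*Col1a2*, *Col3a1*, *Gfap*, *Aqp4*, *Ptprc*, *Cd68* and *Csf1r*) were at 0 in every library. The sum of the other 5 was 7.83 to 8.39 in CTR and 7.86 to 8.25 in NPM1 KD. The part of the lower marker levels in the values of the mitotic genes was not tested.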

How the data were processed

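Long-read RNA-seq was analysed for 3 CTR and 3 NPM1 KD libraries, grouped by the sample titles. The authors deposited an rlog score per gene and library and, in a second table, a mean normalized count (also handled as a score) beside the fold change, standard error, statistic and p-values of their own comparison, which were not used. Both tables write decimal commas. The submitters' processing notes name minimap2, featureCounts, DESeq2 and GRCm39 without versions. The annotation, the treatment of reads shared between gene copies and the use of strand are not given in the sources used here, so genes that overlap or have near-identical copies are uncertain. Of 26913 rows, 257 repeated an Ensembl ID, leaving 26656 genes, 11880 of them at 0 in every library. *Lin54* and 13 mitochondrial messenger RNAs were not analysed here. Some cell line markers are not reported here by name.

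Genes averaging log2 of 10 or more across libraries were fitted with limma 3.58.1 in R 4.3.3 (lmFit, eBayes with an intensity trend, two-sided, Benjamini-Hochberg adjustment over all 5752 genes, threshold 0.05). Variances within groups were raised to at least 1/12, which is what rounding alone contributes. The fit then set each variance by that of genes at a similar level. Its SEs and intervals thus do not show a gene's own spread. *Incenp*, with 1 value per group, and *Mad2l1*, with mixed values, both had an SE of 0.33. Relative depths came from genes with 1 read in total, found in a single library. They were assigned to libraries through the rlog decimals of 915 genes (correlation 0.977 to 0.986 with the assigned library). Whole reads were enumerated with Python 3.11.15, pandas 2.3.3 and numpy 2.4.6 from the authors' mean normalized counts, with a library's normalized reads at most 3 times the mean plus 3, and fitted with limma's voom for means of 3 to under 10. The fit on reads was added after the rounding had been seen. Scripts were tested on simulated data.

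The members, lists and tests were chosen with earlier results of these data known. Named were *Npm1*, every member without overlap between groups, a set of core genes of each group, and from other lists at most 4 genes called or without overlap. The remaining genes were named after their values were seen. Alternatives covered the allowance for rounding, the trend, the filter, the scaling, the replicate number as a block, repeated rows, and each library left out.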

Additional observations from a re-analysis of the deposited data

How the results depend on the processing

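The counts of calls moved most with the treatment of the variance. Without the allowance for rounding 178 genes were lower and 123 higher (24 and 4 with it), and without the intensity trend 218 and 132. Under each of these 2 settings 5 members were called lower, namely *Top2a*, *Mki67*, *Pttg1*, *Incenp* and *Nusap1*, and 0 higher. Their adjusted p ranged from 0, where a variance of 0 was allowed, to 0.263 over all alternatives. Doubling the limit on the variance left 7 lower and 1 higher genes, and applying no filter left 10 and 1, with 0 members. With the replicate number as a block 7 genes were lower and 1 higher. Same-numbered libraries did not deviate together (correlations 0.00887, 0.00128 and 0.0298), so the numbers were not taken to pair them.

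Leaving out 1 library at a time gave 5 to 9 lower and 0 to 2 higher genes and a median difference of the members from −0.33 to 0, with 0 members called. At a mean rlog value of at least 5, 3 members were separated and lower, since fewer genes were tested. Centring each library separated 16 members upward, because it splits ties between equal whole numbers by at most the small differences between library means: 15 of them had 1 value throughout and the other was *Ccnb1*. On whole reads, log2 of normalized reads plus 1 gave 34 lower and 1 higher genes, against 0 and 0 with voom. The log2 fold change of *Ttk* on reads turned to 0.22 with the replicate block, and that of *Foxm1* came to −0.85. Leaving out 1 library, it ranged from −0.60 to 0.21 (without NPM1 KD replicate 3), and that of *Ndc80* from −0.82 to 0.11 (without NPM1 KD replicate 2). That of *Foxm1* ranged from −3.12 to −1.01, that of *Bub1* from −2.31 to −1.29 and that of *Ncapg* from −1.22 to −0.35. The cause was not tested. Reads of most members with higher counts were not worked out, so changes below 1 log2 unit in them may go unseen. Where reads are few, larger ones can be hidden too. *Bub1*, with a log2 fold change of −1.69 on reads, had 1 rlog value in all libraries.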

Other observations

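Whole reads were also available for 5 S phase genes, of which 2 had a log2 fold change below 0 (*Pole*, −0.84, and *Mcm7*, −0.56) and 3 above 0. In 2 of the 5 all NPM1 KD libraries lay above all CTR libraries, beside 7.25% of the 3464 genes of the fit. *Cdc6*, which loads the replicative helicase, had a log2 fold change of 0.68 with overlapping libraries. *Ccne2* (cyclin E2), which acts at the entry to S phase, had 5, 8 and 7 reads in CTR and 9, 7 and 11 in NPM1 KD, with a voom log2 fold change of 0.93 (95% interval 0.05 to 1.80, unadjusted p = 0.0377, adjusted p = 0.47). *Pola1*, the catalytic subunit of DNA polymerase α, had 8, 10 and 8 reads against 11, 7 and 8, which after division by depth did not overlap, with a log2 fold change of 0.45 (95% interval −0.35 to 1.26). Neither passed the adjusted threshold.

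Among mitotic genes outside the 52, *Cdca2*, which targets protein phosphatase 1 to chromatin at mitotic exit, had 11, 20 and 22 reads in CTR and 2, 1 and 5 in NPM1 KD (voom log2 fold change −2.06, 95% interval −3.62 to −0.50, adjusted p = 0.46). *Melk*, a kinase of cycling cells, had 14, 10 and 12 against 2, 3 and 3, and *Cep55*, which recruits the machinery of abscission, had 15, 13 and 13 against 1, 5 and 6. All 3 were named after their values were seen, and their libraries did not overlap.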
